A study of Rattus norvegicus with 2 samples.

Results

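Vomeronasal receptor genes were examined in RNA-seq of the rat hypothalamus before and at puberty. The 139 genes are all those of the mRNA table whose name begins with Vom1r or Vom2r, 79 Vom1r and 60 Vom2r, out of 22777 genes, and they hold 182 of the 26324 transcripts. They carry 134 names, because 5 names are each used by 2 genes, and 1 of them, Vom1r-ps112, is named as a pseudogene. The question was whether any of them is listed above a background level in this tissue.

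Hypothalami came from Sprague Dawley rats, per the study's methods 3 prepubertal females at postnatal day 25 and 3 pubertal ones at postnatal day 35, puberty being judged by vaginal opening and first estrus, and all were killed under pentobarbital. No genetic modification is given for either stage. The labels give 1 sample per stage and the files 1 column, so each stage is 1 library here, differences have no replicate check and no test was made. Levels are FPKM, fragments per kilobase of transcript scaled to library size. The steps of the FPKM correspond to about 20800000 fragments for the prepubertal library and 16200000 for the pubertal one, 1.28 times as many before puberty, and this gives each gene an estimated number of fragments. In genes of few fragments the estimates came out whole within 0.05 for 93.5% and 94.2% of values. The tissue label was checked with 14 genes of hypothalamic neurons: 12 were at 1 FPKM or more in both libraries, led by Pmch, which encodes melanin-concentrating hormone, at 1675 and 2723 FPKM, and Oxt, the oxytocin gene, at 411 and 686 FPKM, while the transcription factors Otp and Nr5a1 fell below 1 FPKM in at least 1 library.

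Vomeronasal receptors are G protein-coupled receptors of the vomeronasal organ, a sense organ at the base of the nasal septum that detects pheromones and other social cues. V1R receptors, encoded by a single coding exon each, couple to the G protein subunit Gnai2 in the apical neurons, and V2R receptors, which have a long extracellular domain like the calcium-sensing receptor, couple to Gnao1 in the basal neurons. Both routes open the cation channel Trpc2, and the signal passes through the accessory olfactory bulb and the amygdala to the hypothalamus, where social cues can act on the neurons that control reproduction. The ligands of most single receptors are unknown, so members are described here by family.

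Of the 139 vomeronasal receptor genes, 43 had an FPKM above 0 in at least 1 library, 30.9% (Wilson interval at 95%, 23.9% to 39.0%), against 79.3% of all genes of the table. The prepubertal library listed 33 of them and the pubertal library 35. Both libraries listed 25, the prepubertal library alone 8, the pubertal library alone 10, and 96 members were listed at 0 in both. Thus 5.76% of members were listed before puberty alone and 7.19% at puberty alone, beside 3.18% and 2.71% of all genes and 4.16% and 6.90% of 985 olfactory receptor genes. Detection was thin: 17 of the 43 had fewer than 1.5 estimated fragments in each library, and 2, Vom2r44 and Vom2r16, reached 10. In these libraries a single fragment gives a V1R gene of 930 nt 0.0715 FPKM before puberty and 0.0909 FPKM at puberty, and a V2R gene of 2600 nt 0.0206 and 0.0263 FPKM. A listing at 0, read as up to 3 fragments, therefore allows 0.214 and 0.273 FPKM for the shorter gene and 0.0617 and 0.0788 FPKM for the longer. Limits and intervals worked out from fragments cover counting error only. The Wilson intervals of shares treat genes as independent draws, whereas these are related genes of a complete set. Because the tissue is a mixture, few cells with a receptor and little receptor RNA per cell cannot be told apart.

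Only 1 member reached 1 FPKM, Vom2r44 (ENSRNOG00000010268), beside 61.6% of all genes that did so in at least 1 library. Vom2r44, a V2R gene for which RefSeq also lists the symbol Casrl1, stood at 3.68 FPKM before and 5.45 FPKM at puberty, about 189.9 and 220.0 fragments on its single transcript of 2741 nt. The pubertal level was 1.48-fold the prepubertal one, with a counting interval at 95% of 1.21 to 1.81, and the log2 ratio of FPKM + 1 was 0.46. Counting error does not cover that difference, but the spread between rats is not known. Vom2r44 stood apart from every other member: the next, the V1R gene Vom1r47, was at 0.585 and 0.650 FPKM, and Vom2r44 was 6.29 and 8.38 times as high. Vom2r44 alone carried 39.7% of the summed FPKM of the members before puberty and 51.2% at puberty.

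**Figure D1:**
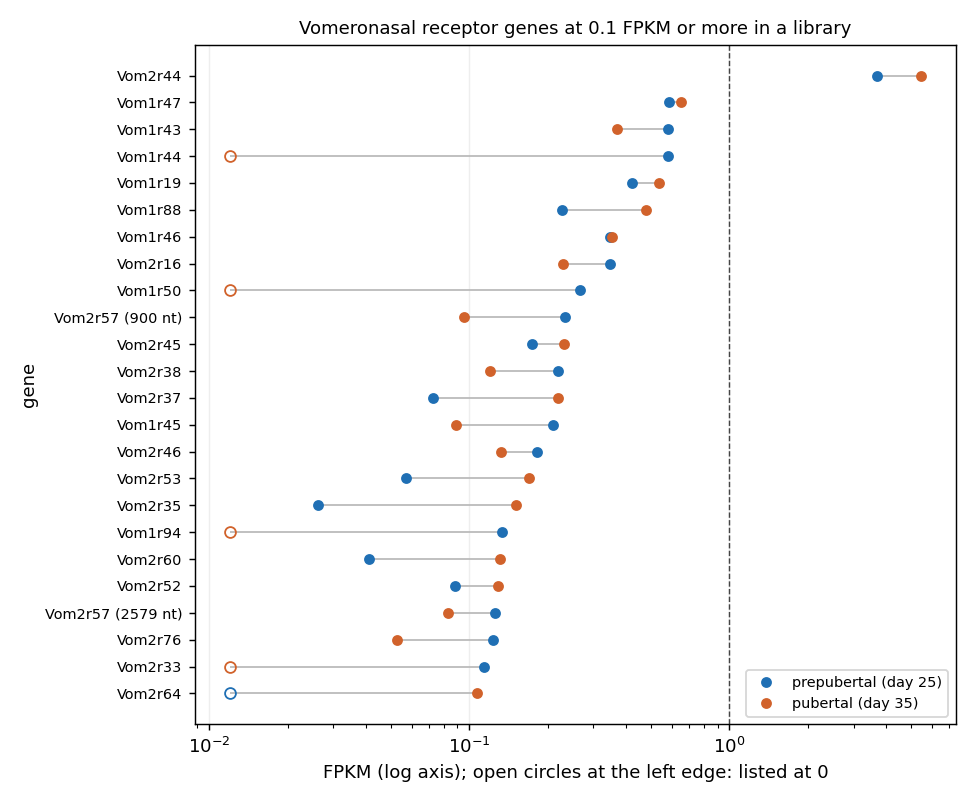
FPKM (log axis) of the 24 vomeronasal receptor genes at 0.1 FPKM or more in at least 1 library, blue for the prepubertal and orange for the pubertal library, with open circles at the left edge for genes listed at 0. Vom2r44 lies to the right of the dashed line at 1 FPKM in both libraries, and the other 23 lie to its left.

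Set among 28 receptor genes of hypothalamic neurons, which ranged from 0.0203 to 65.5 FPKM before puberty, Vom2r44 was above 16 of them in the prepubertal and above 18 in the pubertal library. The medians of these receptors were 3.10 and 2.84 FPKM, so Vom2r44 lay above the median in both. Its prepubertal level was close to that of Crhr1, a receptor for corticotropin-releasing hormone, at 3.54 FPKM, and its pubertal level to that of the orexin receptor gene Hcrtr2 at 5.65 FPKM. Kiss1r, the kisspeptin receptor of the puberty pathway, was lower than Vom2r44 at 1.52 and 1.77 FPKM.

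**Figure D2:**
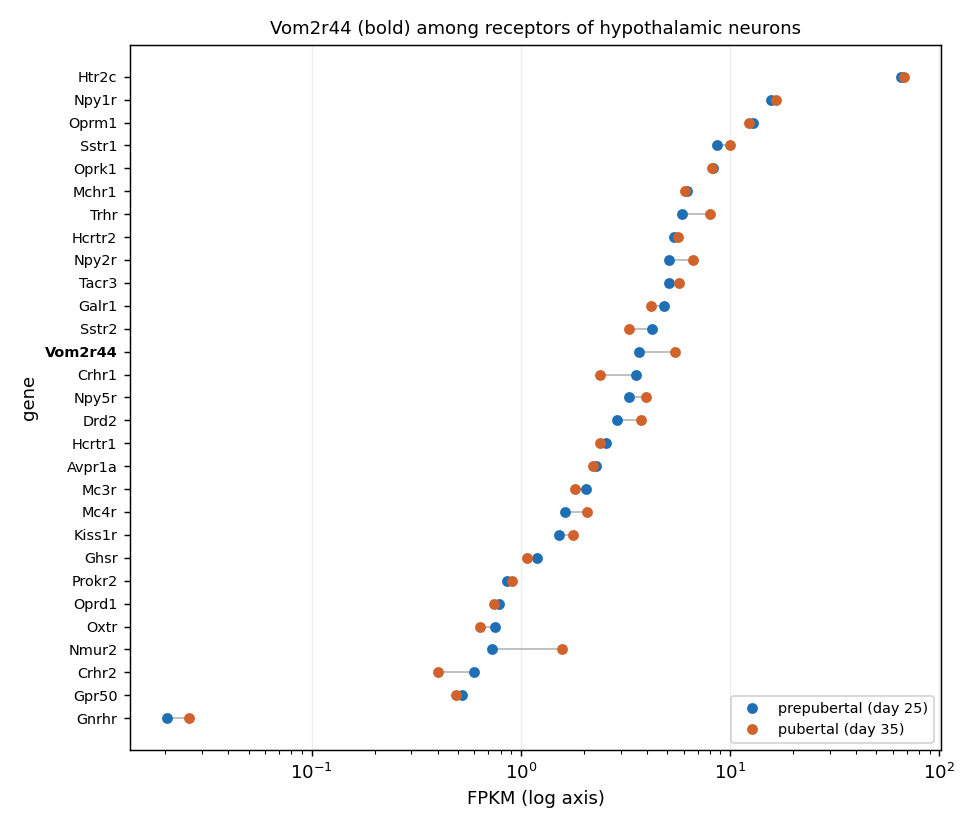
FPKM (log axis) of Vom2r44 (bold) and of 28 receptor genes of hypothalamic neurons, blue for the prepubertal and orange for the pubertal library, in order of the prepubertal level. Vom2r44 sits in the middle of the order, at 3.68 and 5.45 FPKM.

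In RefSeq gene order, Vom2r44 follows Slc33a1, an acetyl-coenzyme A transporter gene, and Gmps, which encodes GMP synthase, and is followed by the V2R genes Vom2r45 and Vom2r46. Gmps had 83.0 FPKM before and 79.5 FPKM at puberty and Slc33a1 27.1 and 28.3 FPKM. Whether transcription from these neighbours contributes to the Vom2r44 value was not tested. The next V2R genes on the other side were far lower. Vom2r45 had 0.174 and 0.232 FPKM, from about 8 fragments in each library, and Vom2r46 had 0.182 and 0.133 FPKM, from 7 and 4 fragments. Of the other genes of the same receptor class, the sweet taste subunit gene Tas1r2 was at 11.2 and 10.3 FPKM, the umami subunit gene Tas1r1 at 1.71 and 1.52, the shared subunit gene Tas1r3 at 0.353 and 0.424, and Casr, the calcium-sensing receptor gene, at 1.42 and 0.703 FPKM.

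Olfactory receptor genes, named Olr, served as the background, since they form another large family of chemoreceptors of the nose. Of the 985 olfactory receptor genes 128 were above 0, 13.0% (Wilson interval at 95%, 11.04% to 15.2%), and their 95th percentile was 0.0682 FPKM before puberty and 0.0896 FPKM at puberty. Above these levels in both libraries were 14 vomeronasal receptor genes, 10.1%, beside 1.62% of the olfactory receptor genes and 70.6% of all genes. The second background, 48 genes restricted to other tissues, was higher: 31.2% of them passed the same levels, 62.5% were above 0 and 12.5% reached 1 FPKM. The 14 are Vom1r19, Vom1r42, Vom1r43, Vom1r46, Vom1r47, Vom1r88, Vom2r16, Vom2r37, Vom2r38, Vom2r44, Vom2r45, Vom2r46, Vom2r52 and the gene of 900 nt named Vom2r57. The levels they had to pass are near that of a single fragment on a V1R gene, and Vom1r42 passed with 1 fragment in each library. With the 99th percentile of the olfactory receptor genes, 0.208 and 0.265 FPKM, 6 members passed, and 1, Vom2r44, lay above the highest olfactory receptor gene, Olr34, which had 2.61 and 1.79 FPKM. Against the 95th percentile of the genes restricted to other tissues 1 member passed, again Vom2r44, and 2 of these genes lay above it in both libraries, the pancreatic lipase gene Pnlip at 37.7 and 23.3 FPKM and the lens crystallin gene Cryga at 5.36 and 7.95 FPKM. Of the other chemoreceptor families, 5 of 15 trace amine receptor genes and 9 of 38 taste receptor genes were above 0, and 2 of the latter, Tas1r1 and Tas1r2, reached 1 FPKM.

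**Figure D3:**
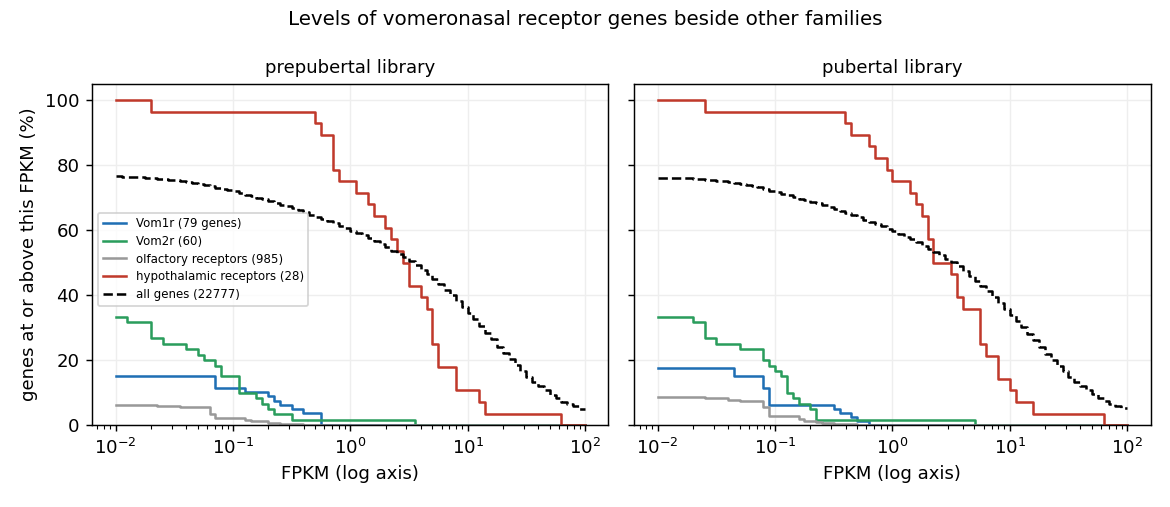
Share of genes (%) at or above each FPKM (log axis) in the prepubertal (left) and the pubertal (right) library, for Vom1r, Vom2r, olfactory receptor genes, receptors of hypothalamic neurons and all genes. Both vomeronasal families run above the olfactory receptors up to 0.5 FPKM and far below the hypothalamic receptors, and the long tail of Vom2r is Vom2r44.

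The families differed in how many members were listed, with a difference that was not tested. V1R genes were above 0 in 19 of 79 cases, 24.1% (Wilson interval at 95%, 16.0% to 34.5%), and V2R genes in 24 of 60 (28.6% to 52.6%). The median longest transcript was 933 nt for V1R, 2564 nt for V2R and 940 nt for olfactory receptor genes, so a V2R gene gathers more fragments at the same FPKM. With 3 or more estimated fragments in a library, 8 V1R, 17 V2R and 20 olfactory receptor genes remained, 10.1%, 28.3% and 2.03% of each family, beside 71.8% of all genes. Over the same 19 V1R genes the median level was 0.0752 FPKM before and 0.0885 FPKM at puberty, and over the same 24 V2R genes 0.0648 and 0.0889 FPKM.

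Most of the V1R signal lay in one stretch. In RefSeq order on chromosome 1, Vom1r42, Vom1r43, Vom1r44, Vom1r45, Vom1r46 and Vom1r47 are 6 neighbouring V1R genes of the table, and each was above 0. Elsewhere in that order on the chromosome, no V1R gene above 0 had a V1R neighbour above 0. Vom1r19, Vom1r25, Vom1r48, Vom1r64 and Vom1r-ps112 were above 0 too but have no place in that order. They could not be counted as neighbours. The 10 genes Vom1r42 to Vom1r51 had 2.64 of the 3.57 FPKM of all V1R genes before puberty and 1.65 of 3.12 FPKM at puberty. These 10 genes were chosen after their values were seen, so their share follows in part from that choice. By fragments the 10 genes had 38.0 before and 18.0 at puberty, and their fold in summed FPKM was 0.624. The counting interval at 95% of the fragment fold, scaled for depth, was 0.324 to 1.08 and included 1. The remaining 69 V1R genes had 13.0 and 16.5 fragments.

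**Figure D4:**
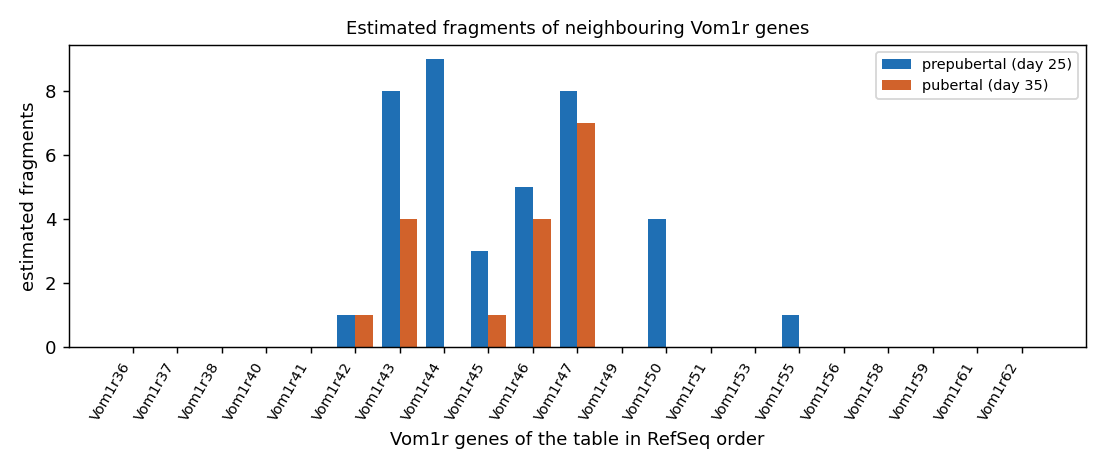
Estimated fragments of 21 V1R genes of the table in RefSeq order around Vom1r47, blue bars for the prepubertal and orange bars for the pubertal library. The 6 neighbours Vom1r42 to Vom1r47 all have a bar, and of the other 15 genes Vom1r50 and Vom1r55 do, in the prepubertal library alone.

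Vom1r47 had 0.585 FPKM before and 0.650 FPKM at puberty, from 8 and 7 fragments. Vom1r43 had 0.582 and 0.370 FPKM, from 8 and 4 fragments, and Vom1r46 0.347 and 0.353 FPKM, from 5 and 4. In each of these genes the stages differed by less than counting error, with intervals of the fold at 95% of 0.343 to 3.51 for Vom1r47, 0.140 to 2.37 for Vom1r43 and 0.202 to 4.73 for Vom1r46. Vom1r44 had 0.579 FPKM from 9 fragments in the prepubertal library and was listed at 0 in the pubertal one, with a counting interval of the fold at 95% of 0 to 0.644. Its log2 ratio, -0.66, was the lowest of all members, and the interval makes no allowance for picking the lowest. Vom1r50 went from 0.267 FPKM, 4 fragments, to a listing at 0, and its log2 ratio was -0.34. Vom1r45 had 0.209 and 0.0885 FPKM, from 3 fragments and 1, and Vom1r42 had 0.0725 and 0.0921 FPKM, from 1 fragment in each library. Vom1r48, which has no place in the RefSeq order used here, was at 0 and 0.0940 FPKM, 1 fragment, and Vom1r49 and Vom1r51 were listed at 0 in both libraries.

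Windows of 300 bases around the RefSeq gene start, from 250 bases before it to 50 bases after, are shown for 4 V1R genes of this stretch: Vom1r47, Vom1r43 and Vom1r44 as the 3 with the highest level in either library and Vom1r51 as one listed at 0. The windows are those of RefSeq on GRCr8, at chr1:81290839-81291138 (+) for Vom1r43, chr1:81321743-81322042 (+) for Vom1r44, chr1:81474214-81474513 (-) for Vom1r47 and chr1:81747533-81747832 (+) for Vom1r51. Many RefSeq models of these receptors begin at the coding start, since ATG stands at the start base in 63.8% of member windows and 8.999% of all windows of the table, so a window need not hold the start of transcription. Among the 4 windows shown, only that of Vom1r51 has ATG at the start base. Capitals mark TAATTA, a core letter sequence of many homeodomain factors.
Vom1r43: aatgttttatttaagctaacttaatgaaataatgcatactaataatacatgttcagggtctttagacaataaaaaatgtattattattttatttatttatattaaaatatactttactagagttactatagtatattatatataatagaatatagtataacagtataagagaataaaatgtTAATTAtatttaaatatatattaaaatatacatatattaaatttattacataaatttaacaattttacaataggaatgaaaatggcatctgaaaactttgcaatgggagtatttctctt
Vom1r44: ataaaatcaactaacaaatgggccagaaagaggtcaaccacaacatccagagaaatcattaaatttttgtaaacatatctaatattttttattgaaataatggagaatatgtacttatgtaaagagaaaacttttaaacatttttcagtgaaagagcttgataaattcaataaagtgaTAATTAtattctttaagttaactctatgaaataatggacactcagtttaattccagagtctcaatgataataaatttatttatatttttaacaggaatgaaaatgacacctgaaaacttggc
Vom1r47: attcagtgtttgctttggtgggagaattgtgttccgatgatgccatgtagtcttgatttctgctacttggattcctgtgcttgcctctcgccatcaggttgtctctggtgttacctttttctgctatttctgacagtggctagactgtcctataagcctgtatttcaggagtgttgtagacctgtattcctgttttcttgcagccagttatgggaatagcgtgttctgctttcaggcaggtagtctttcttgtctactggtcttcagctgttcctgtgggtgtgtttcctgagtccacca
Vom1r51: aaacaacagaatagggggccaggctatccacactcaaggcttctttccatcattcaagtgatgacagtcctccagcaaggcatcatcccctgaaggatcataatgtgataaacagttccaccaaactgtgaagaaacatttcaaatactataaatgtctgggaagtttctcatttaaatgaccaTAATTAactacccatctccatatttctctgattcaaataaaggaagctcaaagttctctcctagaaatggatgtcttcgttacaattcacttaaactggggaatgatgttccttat
TAATTA lies 63 bases before the gene start in Vom1r43, 66 bases before it in Vom1r44 and 60 bases before it in Vom1r51, and Vom1r47 has none in its window. A match thus occurred in members with and without fragments. Compared without gaps at their best shift, Vom1r43 and Vom1r44 shared 116 of 282 bases, 41.1%, and the other pairs 28.4% to 33.9%. An alignment with gaps was not made.

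Over the 116 windows of members, which stand for 114 symbols (1 symbol has several windows, and genes that share a name share a window), TAATTA, which reads the same on both strands, was found in 22.4%, 15.4% of V1R and 31.4% of V2R windows, beside 5.36% of the 33469 windows of the RefSeq table. TATAAA, the letters of the TATA box, was found on either strand in 39.7% of member windows and 14.2% of all, with the same limit that member windows more often begin at a coding start. Both letter sequences consist of A and T alone, and the windows were not matched for base composition. Windows of members above 0 held TAATTA in 7 of 37 cases and those of members listed at 0 in 19 of 79.

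Among V1R genes other than Vom1r42 to Vom1r51, the highest levels were those of Vom1r19, which has no place in the RefSeq order used here, and Vom1r88. Vom1r19 had 0.421 and 0.536 FPKM, 6 fragments in each library. Vom1r88 had 0.227 FPKM from 3 fragments before and 0.480 FPKM from 5 at puberty, a log2 ratio of 0.27 that ranked after that of Vom2r44, with an interval of the fold at 95% of 0.412 to 13.6. It was the only 1 above 0 of the 13 genes from Vom1r66 to Vom1r89 with a RefSeq place. Vom1r94 was at 0.133 FPKM, 2 fragments, before puberty and listed at 0 at puberty.

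Among V2R genes other than Vom2r44, no level exceeded 0.347 FPKM. Vom2r16, with 7 transcripts, had 0.347 and 0.229 FPKM from about 16.5 and 8.54 fragments, Vom2r38 0.219 and 0.120 FPKM from 7 and 3, and Vom2r37 0.0726 and 0.219 FPKM from about 3.20 and 7.54, a log2 ratio of 0.18. Higher at puberty in FPKM were also Vom2r53, with 3 and 7 fragments, Vom2r60, with 2 and 5, and Vom2r35, with 1 and about 4.50. The folds of Vom2r53 and Vom2r60, 2.98 and 3.20, had counting intervals at 95% of 0.681 to 17.9 and 0.523 to 33.5, both including 1. Lower at puberty in FPKM were Vom2r76, with 6 and 2 fragments, and Vom2r33, with 5 and none. Vom2r64 went the other way, from a listing at 0 to 0.107 FPKM, 4 fragments, and Vom2r52 was at 0.0878 and 0.129 FPKM.

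Vomeronasal receptor genes have near-identical copies, and how the authors' counting split reads between them was not tested, so values of close copies are uncertain. Of the 35 members above 0 with a single transcript, 29 had whole numbers of fragments in both libraries and 6 did not. The 6 are Vom1r64, Vom2r37, Vom2r52, both genes named Vom2r57 and Vom2r44, whose estimate of 189.948 lies outside the low range in which whole numbers were checked. The Vom2r57 gene of 900 nt had about 3.13 fragments and 1 (0.234 and 0.0951 FPKM), and that of 2579 nt 6.05 and 3.13 (0.125 and 0.0828 FPKM).

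Over all members together, the sums of both stages were close, and their log2 ratio depended on the genes included. The summed FPKM was 9.27 before and 10.6 at puberty, a log2 ratio of 0.20. Counting error at 95% was worked out for the pooled fragments, 324 and 326, and was 0.222 in log2. In an FPKM sum a fragment on a shorter gene weighs more, and the counting error of that sum was not worked out. Without Vom2r44 the summed FPKM was 5.59 and 5.19, a log2 ratio of -0.11. These members had 134 and 106 fragments. The counting interval at 95% of their fragment fold, scaled for depth, was 0.772 to 1.31 and included 1. Without Vom1r42 to Vom1r51, genes chosen after the values were seen, the log2 ratio of the summed FPKM was 0.44. The median log2 ratio of FPKM + 1 over the 139 members was 0, as over all genes, because 96 members were 0 in both libraries. Of the 43 members above 0, 25 were higher and 18 lower in the pubertal library, 58.1% higher, beside 49.0% of all genes above 0 and 62.5% of the olfactory receptor genes. In 6 of the 25, Vom1r19, Vom1r42, Vom1r46, Vom1r47, Vom2r12 and Vom2r18, the pubertal library had no more estimated fragments, and the FPKM was higher through the scaling to library size. A 2-fold difference in FPKM + 1 was seen in 0 members, beside 0.307% of all genes higher and 0.373% lower at puberty. That measure compresses low levels, and with 0.1 added in place of 1 it was passed by 5 members, Vom2r64 higher and Vom1r44, Vom1r50, Vom1r94 and Vom2r33 lower, beside 5.22% of all genes. These 5 had at most 9 fragments in their higher library and 0 in the other.

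Genes that carry the signal of vomeronasal neurons ranged from levels near those of the highest V1R genes to far above them. Of 11 such genes 9 were in the table, 7 of them at 1 FPKM or more in both libraries and 0 past a 2-fold difference. The G protein subunit genes Gnai2, partner of V1R receptors, and Gnao1, partner of V2R receptors, had 124.5 and 137.0 FPKM and 59.7 and 47.03 FPKM, and both are widely expressed in brain. Gng8, a G protein gamma subunit gene of vomeronasal neurons, was at 9.94 and 7.18 FPKM. Trpc2, the channel gene that defines these neurons, was at 3.92 and 4.62 FPKM, from 230 and 212 fragments, with a fold of 1.18 and a counting interval at 95% of 0.974 to 1.43. The adenylyl cyclase gene Adcy2 had 57.9 and 54.4 FPKM, the inositol trisphosphate receptor gene Itpr3 0.501 and 0.406 and the chloride channel gene Ano1 1.31 and 0.899. Of the genes for receptor folding and surface partners, B2m had 174 and 231 FPKM and Calr4 1.77 and 2.01. Formyl peptide receptors include further receptors of vomeronasal neurons, the Fpr-rs genes, and Fpr-rs3, Fpr-rs4 and Fpr-rs6 were listed at 0 in both libraries, as was Fpr3. Fpr1 and Fpr2, known as receptors of immune cells, had 0.253 and 0.258 FPKM and 0.120 and 0.0766 FPKM, at most 5 fragments each.

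Lipocalins, which carry pheromones in urine and nasal mucus, were listed at 2 FPKM or less. Of 10 ligand genes 6 were in the table. Mup4, Mup5, Obp2a and Obp3 were listed at 0 in both libraries, the odorant-binding gene Obp1f had 1.27 and 1.99 FPKM, at most 5.06 fragments, and Lcn2, an iron-siderophore carrier induced in inflammation, 0.780 and 0.811 FPKM. Olfactory mucosa was checked with 10 genes, 9 of them in the table, with summed levels of 53.3 FPKM before and 47.4 FPKM at puberty. The channel subunit genes Cnga2 and Cnga4 and the cytochrome gene Cyp2g1, each typical of the olfactory epithelium, were listed at 0 in both libraries. The receptor transporter genes Rtp1 and Rtp2 had 0.169 and 0.322 FPKM and 0.212 and 0.269 FPKM, at most 3 fragments each, and Ebf2 had 0.734 and 0.856 FPKM. Gnal at 32.9 and 30.8, Adcy3 at 17.7 and 13.6 and Stoml3 at 1.52 and 1.48 FPKM made up most of the sum.

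The sequence of a lncRNA matched the RefSeq start of V2R genes on the other strand. The deposited sequence of TCONS_00032557 (locus XLOC_030976, 290 nt, 10.1 and 9.38 FPKM) was compared with 172 such windows of vomeronasal receptor genes in RefSeq in runs of at least 32 identical bases. Its reverse complement held 195 bases of the Vom2r80 window, bases 106 to 300 in 1 run, and 153 bases of the Vom2r12 window in 3 runs between bases 109 and 267. It also shared 150 bases with the window of a further V2R gene, Vom2r13. The levels of Vom2r80 and Vom2r13 were not analysed here, and Vom2r12, a member, had 0.0209 and 0.0267 FPKM, 1 fragment in each library. In RefSeq, Vom2r80 lies within Zfp40, a zinc finger gene at 10.6 and 10.03 FPKM on the opposite strand. The windows are at chr1:70695256-70695555 (+) for Vom2r12 and chr1:71494156-71494455 (+) for Vom2r80 on GRCr8, and capitals mark the bases shared with the lncRNA.
Vom2r12: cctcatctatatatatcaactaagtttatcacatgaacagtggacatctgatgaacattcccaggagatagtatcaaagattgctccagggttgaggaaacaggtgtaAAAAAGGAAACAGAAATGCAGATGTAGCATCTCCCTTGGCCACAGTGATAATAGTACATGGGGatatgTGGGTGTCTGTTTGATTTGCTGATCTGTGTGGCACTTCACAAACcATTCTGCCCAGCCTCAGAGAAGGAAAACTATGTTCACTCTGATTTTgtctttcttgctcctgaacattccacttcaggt
Vom2r80: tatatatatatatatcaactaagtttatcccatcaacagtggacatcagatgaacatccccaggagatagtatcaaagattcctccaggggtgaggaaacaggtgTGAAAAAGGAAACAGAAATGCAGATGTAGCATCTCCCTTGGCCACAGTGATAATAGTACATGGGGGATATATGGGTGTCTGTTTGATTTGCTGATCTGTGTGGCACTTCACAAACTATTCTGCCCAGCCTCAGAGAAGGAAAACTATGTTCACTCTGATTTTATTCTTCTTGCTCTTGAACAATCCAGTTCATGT
The unbroken run in Vom2r80 covers base 251, where the RefSeq model starts, and runs to the end of the window. That base is the A of an ATG in both windows. From which locus the lncRNA was transcribed was not tested. Of the 4052 lncRNAs searched, 9 shared such a run with any of the windows, and 7 of these shared it with Vom2r66, in runs on either strand.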

How the data were processed

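Hypothalamic RNA of 1 prepubertal and 1 pubertal sample was analysed. Ribosomal RNA was depleted by the authors, who sequenced stranded libraries from both ends, aligned reads with TopHat and assembled them with Scripture and Cufflinks. The deposited FPKM were estimated by the authors with Cuffdiff (version 2.1.1, as Cufflinks, per the submitters' processing notes), and how 3 rats of a stage were combined is not stated. The labels name build Rnor_5.0, whereas the methods link an annotation of a later build, and RefSeq windows are of GRCr8. Log2 ratios, p-values and q-values of the authors' own comparison were deposited too and were not used.

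FPKM were summed per gene. Fragments were estimated as FPKM x (length - offset) divided by the value of 1 fragment, with offsets of 256 and 251 nt found from single-transcript genes of 800 to 4000 nt. On simulated data of 14646 genes, 1299 of 1299 and 1508 of 1508 low genes were recovered. The simulation used the same formula as the estimate, and genes made to share fragments were left out of the score. It therefore checks the calculation and does not test shared reads. RefSeq matched 130 members by symbol, and 119 had a window in the promoter table. Log2 ratios used a pseudocount of 1. Members and lists were chosen with earlier results of these data known. Genes named are the 20 highest members, the 3 largest log2 ratios each way, members past a threshold, the 7 receptor genes beside 2 lncRNA loci and the lists' genes. Other genes named, as neighbours, relatives or parts of a small count, were chosen after their values were seen. The alternatives concerned thresholds, pseudocount, summing, scaling and reference genes. Analyses used matplotlib 3.10.9, scipy 1.17.1, pandas 2.3.3 and numpy 2.4.6 in Python 3.11.15.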

Additional observations from a re-analysis of the deposited data

Results flagged for a closer look

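The lncRNA table, which the comparison of the receptor genes does not use, lists transcripts at the loci that the study places beside V1R genes, at levels above 3 fragments. At XLOC_031215, beside Vom1r46, Vom1r47, Vom1r48 and Vom1r51, TCONS_00032819 (1183 nt) had 1.20 FPKM before and 3.59 FPKM at puberty, about 23.0 and 54.3 fragments. TCONS_00032820 (783 nt) of the same locus had 1.92 and 1.13 FPKM, about 21.0 and 9.74 fragments. At XLOC_006985, beside Vom1r42, Vom1r43 and Vom1r44, TCONS_00056227 (794 nt) was at 0.269 FPKM before puberty and at 2.05 FPKM, 18.0 fragments, at puberty, the value that exceeded the limit. The stages were not tested, since each is 1 library.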

How the results depend on the processing

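Of 36 alternative values for the 6 counts and sums, 26 stayed within 1.5 times the reported count or within counting error, as worked out for pooled fragments, of the reported ratio. Some of the 26 had little room to move. The FPKM of the comparison table gave the same 6 values, and the median over all members stays at 0 while 96 of 139 are 0 in both libraries. They include those of the highest transcript per gene, of the FPKM of the comparison table, without Vom1r-ps112 and with the pubertal library scaled by 1.04 to equal medians. The 1 member at 1 FPKM became 5 at a threshold of 0.5 and 24 at 0.1. The 14 members above the olfactory receptor genes became 6 with their 99th percentile, 1 with their highest gene and 1 with the 95th percentile of tissue-restricted genes. The 0 members past 2-fold became 5 with a pseudocount of 0.1. The median log2 ratio of 0 became 0.0323 among the 10 members at 0.1 FPKM or more in both libraries. Chosen after seeing the data were 3 further alternatives. The log2 ratio of the summed FPKM, 0.20, changed sign to -0.11 without Vom2r44 and was 0.44 without Vom1r42 to Vom1r51. The counting error of these FPKM sums was not worked out. The 43 members above 0 became 25 with at least 3 fragments. No paired analysis was possible because there is 1 library per stage, and no library could be left out. The planned translated search of lncRNAs against receptor proteins, and its stricter alternative, were not run. At this depth, a listing at 0 allows up to 3 fragments.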
